A study of Mus musculus with 12 samples.

Results

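The 85 genes described here, all but 2 of them, encode nuclear subunits of the oxidative phosphorylation system, the 5 enzyme complexes of the inner mitochondrial membrane that oxidise NADH and succinate and make ATP. They were taken from the 40481 gene IDs of the deposited expression table by gene symbol: protein-coding genes whose symbol begins with Nduf followed by a, b, c, s or v (without the Ndufaf assembly factors), with Uqcr, with Cox4 to Cox8 or with Atp5, and the 4 genes Sdha to Sdhd. These symbols do not take in every nuclear subunit, since Cyc1 (cytochrome c1) of complex III is left out. By complex, 36 belonged to complex I, 4 to complex II, 8 to complex III, 19 to complex IV and 16 to complex V. Ndufa4 and Ndufa4l2, which carry a complex I name, were placed in complex IV, where the Ndufa4 protein is now assigned. The remaining 2, Atp5s (coupling factor B) and Cox7a2l (a factor that joins complexes III and IV into supercomplexes), were taken in by name but are not subunits of a complex and are counted apart.

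Complexes I and II pass electrons to coenzyme Q, complex III passes them on to cytochrome c, and complex IV hands them to oxygen. Complexes I, III and IV pump protons across the membrane, and complex V, the ATP synthase, uses their return to make ATP. All complexes but complex II combine nuclear subunits with subunits encoded in mitochondrial DNA, and some complex IV subunits have isoforms made mainly in muscle, testis or lung. Resting hematopoietic stem cells (HSCs) of adult bone marrow are known for low mitochondrial respiration and a reliance on glycolysis, and respiration rises as they divide and differentiate.

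RNA was sequenced from mouse HSCs in 4 groups of 3 libraries: WT fetal liver, ETV6-RUNX1 fetal liver, WT bone marrow and ETV6-RUNX1 bone marrow. Fetal liver cells came from E14.5 embryos and bone marrow cells from animals 8 weeks old. ETV6-RUNX1 cells carried an inducible fusion gene (iE/R in the labels) that joins the transcription factor genes ETV6 and RUNX1, a fusion of childhood B-cell leukemia. Every group, WT included, was kept in HSC expansion culture for 3 days with 1 µg/mL doxycycline, so no group shows uncultured cells or cells without the drug. The promoter and locus of the transgene, and the number of animals behind a library, are not given in the sources used here, so p-values measure the spread between these libraries, which may in part be technical.

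Libraries held 32.3 to 64.5 M reads, and a level is given as CPM, the reads of a gene scaled to a fixed library size. Because CPM is a share of the library, a lower CPM in such bulk samples cannot tell less RNA of a gene per cell from fewer cells that make it, or from more RNA of other genes. The 10 HSC markers, among them Procr, Slamf1, Mecom, Hlf, Kit and Fgd5, were all detected and summed to 1634 to 4355 CPM. Of the 6 lymphoid markers, Cd3e had no reads in any library, and the list summed to at most 3.97 CPM. Processed pseudogenes (retrocopies of messenger RNAs) took between 1.23% and 2.55% of a library's reads. In each of the 4 groups the library with the most reads in processed pseudogenes was also the library with the most reads in the 85 subunit genes: WT fetal liver replicate 3, ETV6-RUNX1 fetal liver replicate 3, WT bone marrow replicate 1 and ETV6-RUNX1 bone marrow replicate 3.

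Most subunit genes were strongly expressed, and 80 of the 85 passed the expression filter (3 or more of the 12 libraries with 1 CPM or more), as did 14271 genes in all. The other 5, at 0 to 0.803 CPM in every library, are isoforms of complex IV known from other tissues: Cox6a2 and Cox8b of heart and skeletal muscle, Cox7b2 and Cox8c of testis, and Ndufa4l2, a hypoxia-induced relative of Ndufa4. Divided by exon length, the mean level over the 12 libraries ranged among the 80 tested genes from 3.03 CPM per kb for Ndufb2 to 441 CPM per kb for Cox6a1, the ubiquitous form of subunit 6a. That length merges the exons of all annotated transcripts of a gene, so a value per kb also depends on the annotation. The highest levels per kb after Cox6a1 were those of Cox6b1 (411), Uqcr10 (409), Cox4i1 (399) and Uqcrb (378), all small subunits of complexes III and IV.

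Because these genes are known to share promoter elements for the factors NRF1, YY1 and the ETS family (which includes GABPA), their promoters were searched. RefSeq promoters (GRCm38.p6, 250 bases before the start site and 50 after it) were matched for 67 of the 85 genes. Both strands were searched for GCGC, any base, T and GCGC in a row (NRF1), CCGGAAG (an ETS core with its flank) and AAGATGGCG (YY1). The NRF1 letters were found in 17 of the 67 (25.4%), against 5.19% of all 27025 genes with a promoter in the table and 11.6% of the 9988 of them tested here. The ETS letters were found in 16 (23.9%), against 9.93% of all and 20.4% of tested genes. The YY1 letters were found in 7 (10.4%), against 1.64% and 3.63%. For each complex, the matches upstream of the start site are shown for the gene with the most kinds of match and, among equals, the smallest p in the fetal liver comparison, to show what these elements look like in a subunit promoter. Capitals mark the match, each on the gene's own strand, and the motif can lie in either orientation.
Ndufa8 (complex I), NRF1 letters 30 bases upstream, chr2:36049349-36049378, minus strand: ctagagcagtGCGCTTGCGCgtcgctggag
Sdhd (complex II), NRF1 letters 79 bases upstream, chr9:50603909-50603938, minus strand: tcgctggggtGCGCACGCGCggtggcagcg
Sdhd (complex II), ETS letters 46 bases upstream, chr9:50603879-50603905, minus strand: cgtctcctgcCTTCCGGttcacgcttc
Uqcr11 (complex III), ETS letters 66 bases upstream, chr10:80406871-80406897, minus strand: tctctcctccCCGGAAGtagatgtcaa
Cox6a1 (complex IV), NRF1 letters 162 bases upstream, chr5:115349101-115349130, minus strand: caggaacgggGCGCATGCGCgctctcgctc
Cox6a1 (complex IV), NRF1 letters 117 bases upstream, chr5:115349056-115349085, minus strand: cggataaagtGCGCAGGCGCtggagttcct
Cox6a1 (complex IV), ETS letters 16 bases upstream, chr5:115348959-115348984, minus strand: cccatttccgCTTCCGGcgcgccggt
Atp5j (complex V), YY1 letters 88 bases upstream, chr16:84835046-84835074, minus strand: aagtgtaggaAAGATGGCGgagtcttagc
Atp5j (complex V), ETS letters 61 bases upstream, chr16:84835021-84835047, minus strand: gctgagggacCCGGAAGcacttaccct
These starts are RefSeq's. In the GENCODE M21 annotation the Ndufa8 run, the Cox6a1 run with ETS letters and both Atp5j runs lie over an exon of the gene itself, and the Atp5j run with ETS letters also over an exon of Gabpa. The Sdhd run with NRF1 letters lies over an exon of Timm8b and the Cox6a1 run farthest upstream over an exon of Gm42903. The other 3 runs lie over no exon. The Cox6a1 run farthest upstream shows the fully palindromic NRF1 letters, a subset of the NRF1 matches that 5 of the 67 promoters held. A match is a string of letters and not a measured binding site.

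The first question was whether the fusion changed these genes in fetal liver HSCs, and nearly all of them were lower. Of the 80 genes, 65 fell in ETV6-RUNX1 against WT fetal liver cells at a limma adjusted p under 0.05. Of all genes tested, 18.3% fell and 24.8% rose in that comparison. No subunit gene rose by limma, none did so at an unadjusted p under 0.05, and edgeR and DESeq2 on the recovered reads each also gave 65 lower and 0 higher. The median log2 fold change of the 80 was −0.63, against 0.08 for all genes tested. In 70 of the 80 all 3 ETV6-RUNX1 libraries lay below all 3 WT libraries, which was so for 23.3% of all genes tested.

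Together the 85 genes took 2.24%, 2.40% and 2.68% of the reads in WT fetal liver libraries and 1.498%, 1.49% and 1.53% in ETV6-RUNX1 fetal liver libraries. The groups did not overlap, and the mean share was 0.618 times that of WT. By complex the ratio of the mean shares was 0.652 for complex I, 0.655 for II, 0.623 for III, 0.624 for IV and 0.572 for V.

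**Figure D1:**
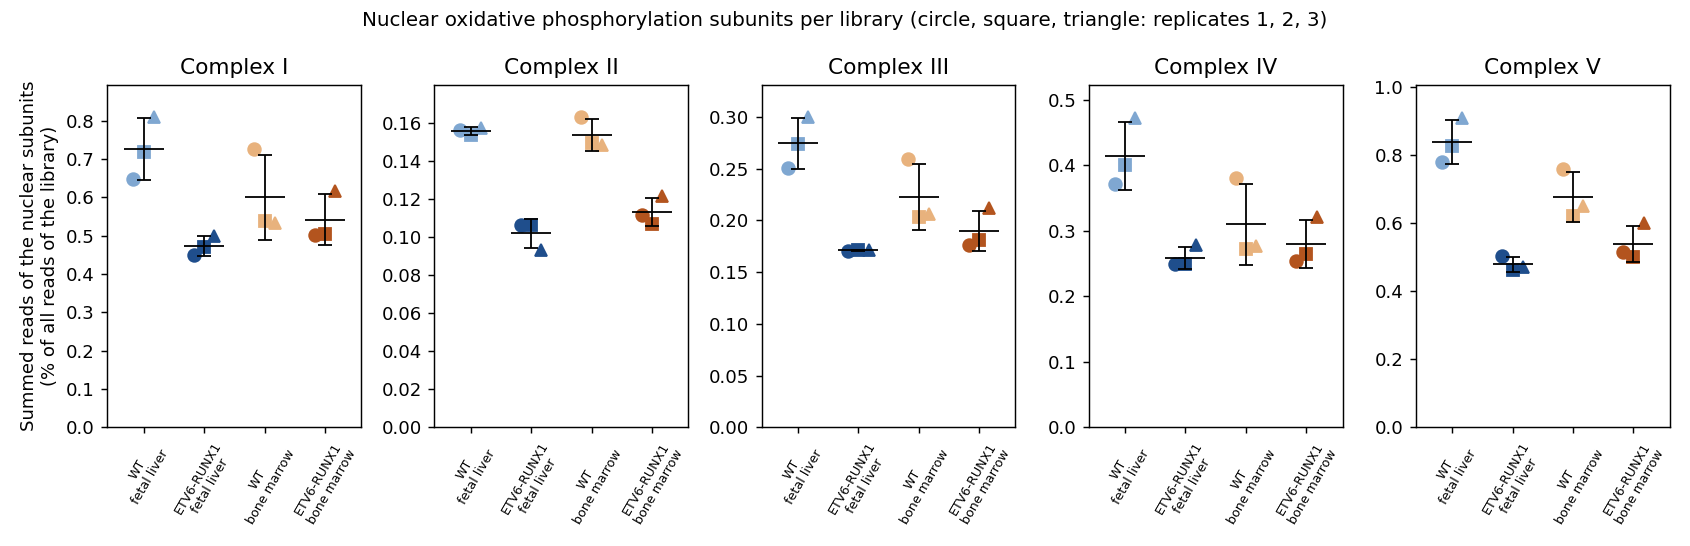
Summed reads of the nuclear subunits of each complex as a percentage of the reads listed in the table, for each of the 12 libraries (points, by replicate) with group means and SD (bars). In fetal liver the 3 ETV6-RUNX1 libraries lie below the 3 WT libraries in every panel, while in bone marrow the groups are separate for complexes II and V and overlap for I, III and IV.

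Complex V, the ATP synthase, showed the largest median change, −0.82, with 14 of 16 genes lower. The alpha subunit of its catalytic F1 head, Atp5a1, was at 1575, 1504 and 1477 CPM in WT and at 930, 777 and 725 CPM in ETV6-RUNX1 fetal liver libraries. The groups were far apart, and this was the smallest p among the 80 genes (log2 fold change −0.91, SE 0.12, adjusted p = 5.5e-05). The beta subunit, Atp5b, which holds the catalytic sites, fell by 0.80 on the log2 scale (adjusted p = 0.00013), and the gamma subunit of the rotor shaft, Atp5c1, fell by 0.84 (adjusted p = 0.00012).

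Atp5g1, Atp5g2 and Atp5g3 encode the same mature c subunit, which forms the ring that turns as protons pass. All 3 fell, and Atp5g1 had the largest fall of the 80 genes. It was at 388, 413 and 463 CPM in WT and at 182, 177 and 161 CPM in ETV6-RUNX1 libraries (log2 fold change −1.27, SE 0.18, adjusted p = 7.6e-05). Every WT value lay far above every ETV6-RUNX1 value. Atp5g3 fell by 1.12 and Atp5g2 by 0.89 on the log2 scale (adjusted p = 0.00013 and 0.0007).

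Of the 8 genes for the stalk and membrane part, 7 fell, with Atp5k (subunit e, which helps the enzyme form dimers) first among them. Atp5k was at 181, 203 and 257 CPM in WT and at 103, 89.5 and 101 CPM in ETV6-RUNX1 libraries, without overlap (log2 fold change −1.10, SE 0.17, adjusted p = 0.00018). The other 2 genes of complex V did not pass the test: Atp5e of F1 (log2 fold change −0.40) and Atp5l of the membrane part (−0.31).

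In complex I, the NADH dehydrogenase, 28 of 36 genes fell, with a median of −0.60. Of the 7 core subunits, which carry the flavin and iron-sulfur clusters or the site for coenzyme Q, 6 fell, among them Ndufs7 by 0.76 on the log2 scale, Ndufs8 by 0.70, Ndufv1 by 0.64, Ndufv2 by 0.55 and Ndufs1 by 0.51. Ndufs3 did not pass and had a log2 fold change of −0.27 (adjusted p = 0.13). Among the 29 accessory subunits 22 fell, and the smallest p values were those of Ndufa10, Ndufb10 and Ndufa9.

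Ndufb10, part of the membrane arm, was at 226, 226 and 265 CPM in WT and at 127, 125 and 117 CPM in ETV6-RUNX1 fetal liver libraries. The groups were clearly separate (log2 fold change −0.95, SE 0.16, adjusted p = 0.00028). Ndufa10 was at 148, 176 and 190 CPM against 95.8, 91.3 and 108 CPM, again without overlap (−0.79, SE 0.13, adjusted p = 0.00022). Ndufa1 had the only positive value in complex I (log2 fold change 0.25, adjusted p = 0.32).

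All 4 genes of complex II, succinate dehydrogenase, which also belongs to the citric acid cycle, were lower. Sdhd, a membrane anchor, was at 345, 395 and 387 CPM in WT and at 229, 225 and 202 CPM in ETV6-RUNX1 libraries, with no overlap (log2 fold change −0.78, SE 0.14, adjusted p = 0.00052). The other anchor, Sdhc, fell by 0.63, the flavoprotein Sdha by 0.56 and the iron-sulfur protein Sdhb by 0.51 on the log2 scale (adjusted p = 0.0016, 0.0048 and 0.0096).

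In complex III, the cytochrome bc1 complex, 7 of 8 genes fell. The small subunit Uqcr10 was at 287, 316 and 385 CPM in WT and at 161, 166 and 168 CPM in ETV6-RUNX1 libraries, and the groups were apart (log2 fold change −0.98, SE 0.17, adjusted p = 0.00048). Uqcr11, whose promoter run is shown above, fell by 0.94 on the log2 scale, and the core proteins Uqcrc1 and Uqcrc2 by 0.72 and 0.41. Uqcrfs1, the Rieske iron-sulfur protein, was the exception (log2 fold change −0.48, SE 0.45, adjusted p = 0.41), and its replicates varied widely.

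In complex IV, cytochrome c oxidase, 11 of the 14 tested genes fell. Cox4i2, the lung-type isoform of subunit 4, was at 41.5, 57.8 and 50.3 CPM in WT and at 21.0, 24.9 and 26.0 CPM in ETV6-RUNX1 libraries, with no overlap (log2 fold change −1.02, SE 0.20, adjusted p = 0.0011). Its ubiquitous partner Cox4i1 fell by 0.69 on the log2 scale, from a mean of 802 to 493 CPM. Cox6a1 fell by 0.83, Cox8a and Cox5b by 0.78, Cox6b1 by 0.78, Ndufa4 by 0.65, Cox7a2 by 0.58 and Cox7b by 0.53. The 3 that did not pass were Cox6b2, the testis form of 6b (−0.39), Cox7a1, the muscle form of 7a (−0.20, at 0.747 to 3.58 CPM over all libraries), and Cox5a (0.47, SE 0.78). Of the 2 associated genes, Cox7a2l fell by 0.49 (adjusted p = 0.031), and Atp5s had a log2 fold change of −0.29 (adjusted p = 0.18).

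Other properties of the libraries moved with the same comparison. The HSC markers summed to 1634 to 1979 CPM in WT and 4157 to 4355 CPM in ETV6-RUNX1 fetal liver libraries (8 of 10 higher, 0 lower, by limma), megakaryocyte markers to 3049 to 4501 and 7035 to 7647 CPM (3 of 6 higher, 1 lower), erythroid markers to 649 to 910 and 1256 to 1985 CPM (3 of 4 tested higher) and granulocyte and monocyte markers to 470 to 571 and 774 to 979 CPM (4 of 6 tested higher, 2 lower). Endothelial and stromal markers summed to 70.9 to 96.7 and 147 to 177 CPM (2 of 3 tested higher), mast cell markers to 5.29 to 9.88 and 3.36 to 4.29 CPM (1 of 2 tested lower), and hepatocyte markers to 15.1 to 19.4 and 15.1 to 16.98 CPM (1 of 2 tested lower). Most of the erythroid sums came from Hbb-bt, at 648 to 908 CPM in WT and 1238 to 1961 CPM in ETV6-RUNX1 fetal liver libraries. The erythroid marker Klf1 lay the other way, at 0.497 to 0.954 and 0.0300 to 0.315 CPM. Lyz2, the highest granulocyte and monocyte marker, was at 200 to 265 CPM in WT and 609 to 795 CPM in ETV6-RUNX1 fetal liver libraries. In that list Prtn3 lay the other way, at 174 to 199 and 24.8 to 34.7 CPM. So did Mpo, at 19.5 to 119 and 7.56 to 12.9 CPM. Processed pseudogenes took 1.65% to 2.37% of reads in WT and 1.23% to 1.91% in ETV6-RUNX1 fetal liver libraries. With that share as a covariate 43 subunit genes were lower and 1, Ndufa1, was higher, and without the library highest in processed pseudogenes of each group 68 were lower and 0 higher. Of all genes tested 16% were lower in the covariate fit and 17% without those libraries. The part of the marker lists in the result was not tested. Of the 85 genes 30 overlap a gene on the opposite strand, and whether the counting used strand is not given in the sources used here. Of the 44 tested subunit genes that overlap no other annotated gene 36 fell. The same count was not made for all genes tested, and the part of overlapping genes in the result was not tested.

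**Figure D2:**
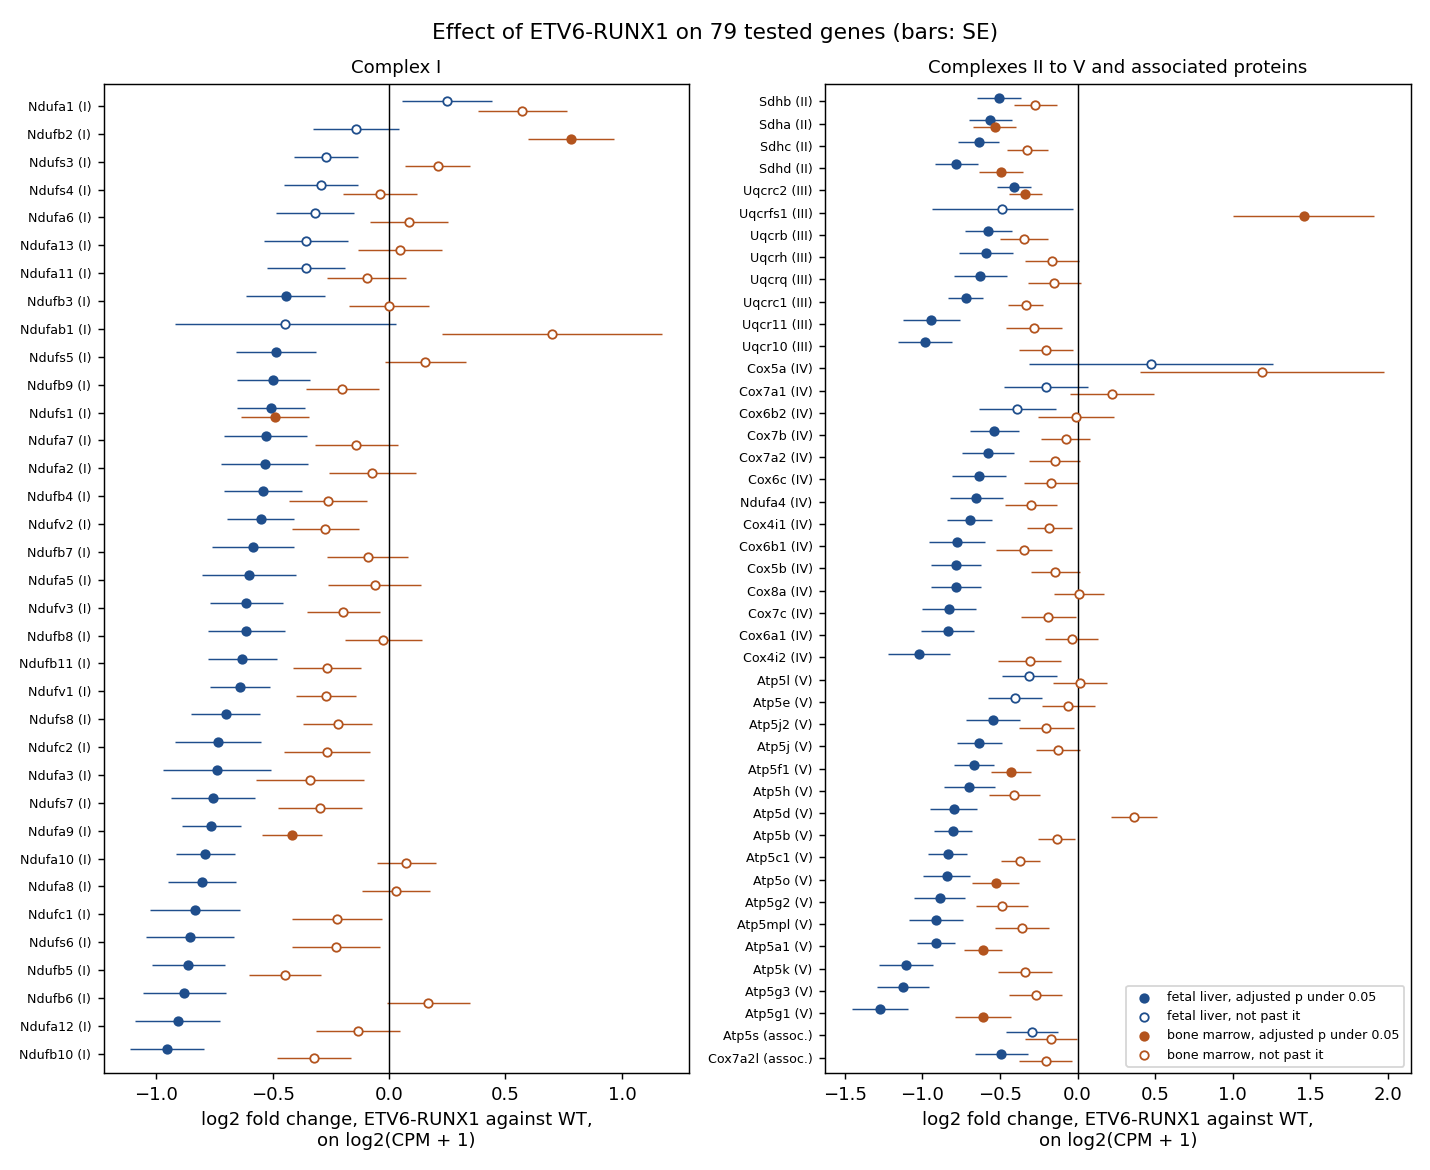
Log2 fold change of ETV6-RUNX1 against WT on log2(CPM + 1) for 79 of the 80 tested genes, in fetal liver (blue) and bone marrow (orange), with SE as bars; filled points passed a limma adjusted p of 0.05. In fetal liver 64 points are filled, all left of 0, and in bone marrow 11 are filled, 9 left and 2 right of 0.

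In bone marrow HSCs fewer of the genes passed the same comparison. Of the 80 genes 9 fell and 2 rose, where 4.93% of all genes tested fell and 14.4% rose. The median log2 fold change of the 80 was −0.19, against 0.13 for all genes tested, but −0.03 against 0.08 without WT bone marrow replicate 1. With the share of processed pseudogenes as a covariate there were 44 calls in each source. The median of the 80 was then −0.49 in fetal liver, against 0.02 for all genes tested, and −0.40 in bone marrow, against 0.19. Of all genes tested 16% fell and 18.7% rose in that fetal liver fit, and 7.12% fell and 20.2% rose in bone marrow. Scaling by median of ratios moved the median of all genes to 0.00 and that of the 80 to −0.35, with 14 lower and 2 higher, against 9.79% of all genes lower. In 15 of the 80 all 3 ETV6-RUNX1 libraries lay below all 3 WT libraries, as did 10.9% of all genes tested, and in 2 all lay above, as did 23.6%.

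The 85 genes took 2.33%, 1.82% and 1.84% of reads in WT and 1.59%, 1.58% and 1.91% in ETV6-RUNX1 bone marrow libraries. The groups overlapped, since ETV6-RUNX1 replicate 3 lay above 2 of the WT libraries, and the ratio of mean shares was 0.848. It was 0.738 for complex II, 0.796 for V, 0.851 for III and 0.903 for both I and IV.

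The 9 genes that fell were Atp5a1, Atp5g1, Atp5o and Atp5f1 of complex V, Sdha and Sdhd of complex II, Ndufa9 and Ndufs1 of complex I and Uqcrc2 of complex III. Atp5a1 was at 1345, 1353 and 1395 CPM in WT and at 927, 804 and 962 CPM in ETV6-RUNX1 bone marrow libraries, without overlap (log2 fold change −0.61, SE 0.12, adjusted p = 0.0049). Sdha was at 574, 696 and 650 CPM against 463, 432 and 429 CPM, also without overlap (−0.53, SE 0.14, adjusted p = 0.017). Sdhd fell by 0.49 (adjusted p = 0.025), Atp5o, the oligomycin sensitivity protein of the stalk, by 0.53 (0.027), and Atp5g1 by 0.61 (0.03), all on the log2 scale.

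Atp5f1 (subunit b of the stalk) fell by 0.43, Ndufs1 by 0.49, Ndufa9 by 0.42 and Uqcrc2 by 0.34 on the log2 scale, with adjusted p from 0.031 to 0.043. All 9 were also among the 65 that fell in fetal liver, that is 100% of the bone marrow list and 13.8% of the fetal liver list. For all genes tested, the overlap made up 82.5% of the genes lower in bone marrow and 22.3% of those lower in fetal liver. No complex IV gene passed the test in bone marrow by limma, edgeR or DESeq2, nor at an unadjusted p under 0.05, whereas 6 of 14 were lower with the share of processed pseudogenes as a covariate.

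The 2 genes that rose in bone marrow differed in how steady they were. Ndufb2, an accessory subunit of complex I, was at 14.49, 14.8 and 14.0 CPM in WT and at 25.6, 24.1 and 27.04 CPM in ETV6-RUNX1 libraries, which are tight and separate groups (log2 fold change 0.78, SE 0.18, adjusted p = 0.011). Ndufb2 had the lowest level per kb of the tested complex I genes, a value that also depends on its annotated exon length. It overlaps Braf on the opposite strand. Uqcrfs1 was at 21.3, 20.0 and 28.7 CPM in WT and at 111, 99.3 and 24.6 CPM in ETV6-RUNX1 libraries, so that ETV6-RUNX1 replicate 3 lay within the WT values (1.46, SE 0.45, adjusted p = 0.037).

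Of the 9 falls, only that of Atp5a1 kept its call under every alternative other than an added 2-fold threshold. Without ETV6-RUNX1 bone marrow replicate 2 there was 1 lower and 1 higher gene, without its replicate 1 there were 2 lower and 1 higher, and without WT bone marrow replicate 1 there were 3 lower and 2 higher. Processed pseudogenes took 1.60% to 2.23% of reads in WT and 2.13% to 2.55% in ETV6-RUNX1 bone marrow libraries, and of the 44 calls with that share as a covariate 42 were lower and 2 higher. Without the library highest in processed pseudogenes of each group 14 were lower and 4 higher, where 6.24% of all genes tested were lower and 14% higher. HSC markers summed to 1751 to 2573 CPM in WT and 2938 to 3229 CPM in ETV6-RUNX1 bone marrow (7 of 10 higher, 0 lower). Among them Ly6a was at 38.4 to 179 and 282 to 629 CPM, and Slamf1 at 73.0 to 74.7 and 59.1 to 75.0 CPM. Granulocyte and monocyte markers summed to 412 to 597 and 445 to 624 CPM (2 of 6 tested higher, 1 lower), megakaryocyte markers to 1361 to 1813 and 464 to 2080 CPM (1 of 6 lower), mast cell markers to 7.90 to 13.6 and 6.99 to 10.2 CPM (1 of 2 tested lower) and hepatocyte markers to 21.2 to 33.2 and 24.3 to 36.8 CPM (1 of 2 tested lower). No erythroid, lymphoid or endothelial and stromal marker passed the limma test there, and the part of these lists in the result was not tested.

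Whether the effect of the fusion differed between the sources was tested as an interaction, the fetal liver log2 fold change minus that of bone marrow. It was negative for all 80 genes, with a median of −0.45 against −0.05 for all genes tested. Of the 80, 9 passed with a larger fall or smaller rise in fetal liver, where 9.19% of all genes passed, 3.62% in that direction and 5.56% in the other. None passed in the other direction by limma, edgeR or DESeq2, or at an unadjusted p under 0.05. Among them were Ndufa8, Ndufa10, Ndufb2 and Ndufb6 of complex I, Cox8a of complex IV, and Atp5b, Atp5d and Atp5g3 of complex V.

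Atp5d, the delta subunit of the rotor shaft, differed most. In fetal liver it was at 305, 352 and 376 CPM in WT and at 199, 157 and 243 CPM in ETV6-RUNX1 libraries, and in bone marrow at 254, 223 and 223 CPM in WT and at 295, 295 and 311 CPM in ETV6-RUNX1 libraries. ETV6-RUNX1 libraries thus lay below WT in fetal liver and above WT in bone marrow, without overlap in either. The interaction was −1.16 (SE 0.21, adjusted p = 0.0037), although the bone marrow difference alone did not pass (0.36, adjusted p = 0.10). Ndufa10 had an interaction of −0.86 (SE 0.18, adjusted p = 0.0086), since it was at 146, 135 and 136 CPM in WT and at 156, 135 and 149 CPM in ETV6-RUNX1 bone marrow.

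The count of 9 changed with the libraries fitted. It was 33 without WT bone marrow replicate 1, and between 2 and 5 without 8 of the other libraries in turn. With the share of processed pseudogenes as a covariate it was 0, and without the library highest in them of each group it was 20. All 33 and all 20 were in the same direction as the 9. Of all genes tested, 7.18% passed in that direction without WT bone marrow replicate 1. Without the library highest in processed pseudogenes of each group 7.12% did. The covariate also moved the median of the 80 to −0.02, above the −0.15 of all genes tested, so that they no longer lay below the rest.

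Fetal liver and bone marrow cells of the same genotype were compared next. These comparisons use the same libraries as the genotype comparisons and are not independent of them. In WT cells 5 of 80 genes were higher in fetal liver and none lower, where 3.38% of all genes tested were higher and 7.77% lower. At an unadjusted p under 0.05, 32 were higher and 1 lower, and neither edgeR nor DESeq2 called a lower one. Of the 14271 genes tested, 1196 were higher and 2414 lower at that unadjusted p. The median log2 difference of the 80 was 0.32, against −0.07 for all genes tested.

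Cox4i2 stood first, at 41.5, 57.8 and 50.3 CPM in WT fetal liver and 28.8, 17.5 and 19.1 CPM in WT bone marrow libraries, with no overlap (log2 difference 1.18, SE 0.20, adjusted p = 0.0015). The others were Atp5g3 (0.63), Ndufb6 (0.60), Atp5d (0.56) and Atp5b (0.39), with adjusted p from 0.026 to 0.049. Without WT bone marrow replicate 1 there were 42 higher genes, and leaving out any 1 of the other WT libraries left 1 to 3. Without the library highest in processed pseudogenes of each group there were 37, where 4.25% of all genes tested were higher and 10.6% lower. Markers differed between the sources as well: megakaryocyte markers summed to 3049 to 4501 CPM in WT fetal liver and 1361 to 1813 CPM in WT bone marrow, and erythroid markers to 649 to 910 and 198 to 458 CPM, both without overlap. Most of the erythroid sums came from Hbb-bt, at 648 to 908 CPM in WT fetal liver and 196 to 456 CPM in WT bone marrow. Klf1 was at 0.497 to 0.954 and 0.747 to 1.13 CPM. The part of these markers in the result was not tested.

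In ETV6-RUNX1 cells 7 of 80 genes were lower in fetal liver than in bone marrow and none higher, where 18.2% of all genes tested were lower and 10.4% higher. The share of the members that fell was thus under that of all genes. The median of the 80, −0.15, was close to that of all genes tested, −0.16, and it was 0.03 with median-of-ratios scaling, which moved the median of all genes to 0.00. At an unadjusted p under 0.05, 1 was higher, and DESeq2 called 1 higher and edgeR none. Ndufb2 was at 12.4, 11.4 and 16.3 CPM in fetal liver and 25.6, 24.1 and 27.04 CPM in bone marrow libraries (log2 difference −0.90, SE 0.18, adjusted p = 0.0024). Others were Atp5d (−0.61), Ndufa12 (−0.59), Ndufa10 (−0.57), Atp5s (−0.49) and Ndufv1 (−0.36). With edgeR 1 of the 80 was lower, with DESeq2 2 were, and with the share of processed pseudogenes as a covariate 7 were higher and 1 lower, with a median of 0.24. In that covariate fit 6.88% of all genes tested were higher and 15.6% lower, with a median of −0.22. Megakaryocyte markers summed to 7035 to 7647 CPM in fetal liver and 464 to 2080 CPM in bone marrow. Erythroid markers, mostly Hbb-bt, summed to 1256 to 1985 and 367 to 569 CPM. The part of these markers was not tested.

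The share of each isoform among the genes of a subunit was also followed. Per kb of exon, Cox4i2 made up 10.97% ± 2.17 (SD, n = 3) of the 2 subunit 4 genes in WT fetal liver, 8.71% ± 0.741 in ETV6-RUNX1 fetal liver, 6.34% ± 0.723 in WT bone marrow and 5.76% ± 0.225 in ETV6-RUNX1 bone marrow. All 6 fetal liver libraries, at 7.88% to 13.5%, lay above all 6 bone marrow libraries, at 5.60% to 7.04%. Among the c subunit genes Atp5g1 made up 17.8% to 18.9% in WT and 14.8% to 16.4% in ETV6-RUNX1 fetal liver libraries, and 15.6% to 16.99% and 13.8% to 15.2% in bone marrow. Within each source the ETV6-RUNX1 libraries lay below the WT libraries. Cox6b2 made up 7.14% to 8.82% of the subunit 6b genes in WT fetal liver and 13.8% to 14.0% in ETV6-RUNX1 bone marrow, the lowest and highest group means. These shares are descriptions, without a test.

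A few members varied between replicates far more than the rest. The SD within groups, on log2(CPM + 1), had a median of 0.22 over the 80 genes, close to 0.25 for all genes tested. It was above 0.5 for 3 genes, singled out after their values were seen: Cox5a (1.27), Ndufab1 and Uqcrfs1. Of the 14271 genes tested 639 were above 0.5, so a count of 3 among the 80 was not out of the ordinary. Cox5a, which encodes a heme-free subunit of complex IV, was at 124, 122 and 30.8 CPM in WT fetal liver, 105, 69.0 and 176 CPM in ETV6-RUNX1 fetal liver, 8.34, 37.6 and 57.0 CPM in WT bone marrow and 112, 131 and 15.6 CPM in ETV6-RUNX1 bone marrow libraries. Its groups overlapped in both genotype comparisons.

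Ndufab1, the mitochondrial acyl carrier protein and a complex I subunit, was lowest in the same library as Cox5a, WT bone marrow replicate 1, at 26.9 CPM against 135 and 148 CPM in the other WT bone marrow libraries. Cox5a, Ndufab1 and Uqcrfs1 were each lowest of their group in WT fetal liver replicate 3 and ETV6-RUNX1 bone marrow replicate 3 and highest of their group in ETV6-RUNX1 fetal liver replicate 3. All 3 of those libraries had the highest processed pseudogene share of their group. None of the 3 genes passed the test in fetal liver.

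**Figure D3:**
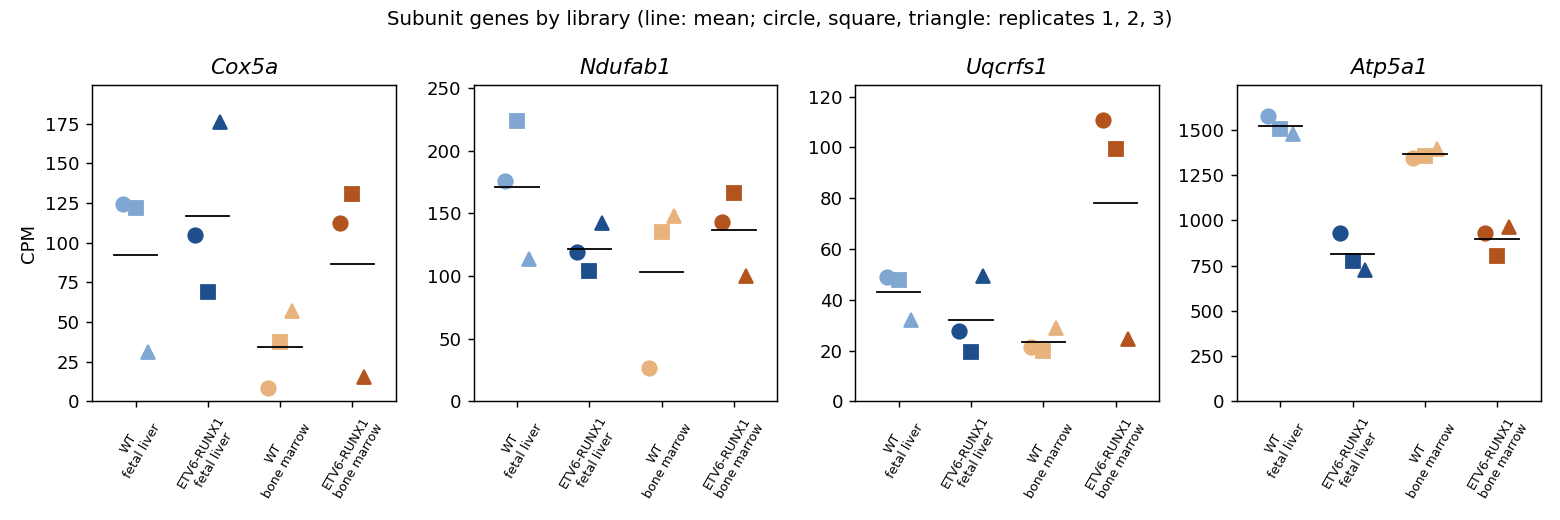
CPM of Cox5a, Ndufab1 and Uqcrfs1, the 3 members with the largest spread within groups, and of Atp5a1 for contrast, in each of the 12 libraries (points, by replicate) with group means (lines). Cox5a in WT bone marrow runs from 8.34 to 57.0 CPM, whereas Atp5a1 there runs from 1345 to 1395 CPM.

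**Figure D4:**
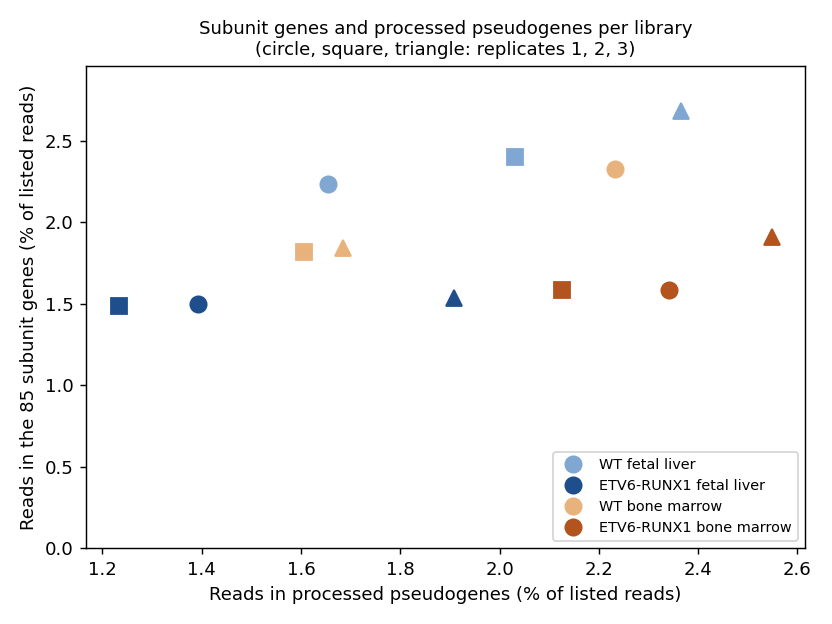
Reads in the 85 subunit genes against reads in processed pseudogenes, both as a percentage of listed reads, for each of the 12 libraries. ETV6-RUNX1 fetal liver libraries lie at 1.49% to 1.53% of reads in subunit genes across 1.23% to 1.91% of reads in processed pseudogenes, and in each group the rightmost library is also the highest.

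The subunits encoded in mitochondrial DNA and the factors that build and supply the complexes were set beside the nuclear subunits. Of the 13 mitochondrially encoded subunits 9 fell in ETV6-RUNX1 fetal liver by limma, with a median of −0.64. mt-Nd1, a complex I subunit, was at 2128, 2334 and 2679 CPM in WT and at 1216, 984 and 923 CPM in ETV6-RUNX1 fetal liver libraries, without overlap (log2 fold change −1.20, SE 0.15, adjusted p = 2.6e-05). mt-Cytb of complex III fell by 1.07 and mt-Nd2 by 0.89 on the log2 scale, whereas mt-Co1, the catalytic subunit of complex IV, had means of 1530 ± 291 and 1604 ± 96.5 CPM (SD, n = 3). In bone marrow limma called none of the 13, with 2 lower at an unadjusted p under 0.05, edgeR called 1 lower and DESeq2 2 lower.

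The counts of these lists stand beside 18.3% of all genes tested that fell and 24.8% that rose in fetal liver, and 4.93% and 14.4% in bone marrow. Of 48 tested assembly factors 23 fell and 2 rose in fetal liver, and 3 fell and 3 rose in bone marrow, where the number that fell was near the share of all genes. Ecsit, Ndufaf4 and Ndufaf8, which help build complex I, fell by 0.89, 0.91 and 0.81 on the log2 scale in fetal liver, and Cmc2, a complex IV factor, by 1.09. The copper chaperone Sco1 and Coa5 rose by 0.84 and 0.63. In bone marrow Cox17, which delivers copper to complex IV, rose by 1.17, from 18.7 ± 1.63 to 43.9 ± 10.4 CPM, while Cox11, another copper protein at low level, fell from 4.29 ± 1.60 to 0.519 ± 0.326 CPM (SD, n = 3; adjusted p = 0.00063). Cox11 was also lower in ETV6-RUNX1 than in WT fetal liver, at 0.782 ± 0.222 against 3.24 ± 0.854 CPM (SD, n = 3).

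Of 18 citric acid cycle genes 12 fell in fetal liver and 9 in bone marrow, where 18.3% and 4.93% of all genes tested did. In bone marrow 3 of the 18 had a positive log2 fold change. By limma none was higher in either source, with 0 and 1 higher at an unadjusted p under 0.05, and edgeR and DESeq2 called none higher. Idh3a, the catalytic subunit of NAD-dependent isocitrate dehydrogenase, was at 294, 323 and 288 CPM in WT and at 150, 133 and 132 CPM in ETV6-RUNX1 fetal liver libraries, with no overlap (log2 fold change −1.12, SE 0.12, adjusted p = 9.5e-06). In bone marrow it fell by 0.64 (adjusted p = 0.0038), and fumarase, Fh1, fell by 1.07 and 0.63 in the 2 sources.

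Of 13 coenzyme Q genes 6 fell and 1 rose in fetal liver, led by Coq7 (−1.14), and 1 fell and 1 rose in bone marrow. Coq10b, which binds coenzyme Q, rose in both (0.57 and 0.50). Cycs, the soluble cytochrome c, fell from 292 ± 36.8 to 127 ± 20.5 CPM in fetal liver and from 176 ± 44.8 to 118 ± 11.6 CPM in bone marrow (SD, n = 3; adjusted p = 0.00014 and 0.047). Of 8 tested carriers 5 fell in fetal liver and 3 in bone marrow. Slc25a5, the ADP/ATP carrier that exports ATP, fell from 2397 ± 223 to 1247 ± 173 CPM in fetal liver (adjusted p = 0.00025).

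Of 15 tested regulators of mitochondrial biogenesis 4 fell in fetal liver and none did in bone marrow by limma (1 at an unadjusted p under 0.05, 1 by edgeR and 1 by DESeq2), which is near the 18.3% and 4.93% of all genes tested. Tfam, Tfb2m and Twnk, which act in mitochondrial transcription or DNA replication, fell by 0.73, 0.88 and 0.92 on the log2 scale in fetal liver. Esrra, a nuclear receptor for mitochondrial genes, rose in bone marrow from 1.61 ± 0.164 to 4.27 ± 0.498 CPM (SD, n = 3; adjusted p = 0.0073).

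The fold changes in fetal liver were also set out by promoter letters. The median log2 fold change was −0.78 for the 17 tested genes with NRF1 letters, of which 15 fell, and −0.62 for the 48 tested genes without them, of which 36 fell. It was −0.70 with and −0.63 without ETS letters, and −0.76 with and −0.64 without YY1 letters. With ETS letters 13 of 16 fell and without them 38 of 49. With YY1 letters 6 of 7 fell and without them 45 of 58. These values are given without a test.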

How the data were processed

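Per the labels' protocols, total RNA was made into libraries with a SMARTer stranded kit and sequenced as read pairs. The authors deposited CPM per gene. The submitters' processing notes name GRCm38, bcl2fastq, STAR 2.5.1a, Subread, featureCounts 1.4.6-p5, Salmon 0.8.2, edgeR and limma, with no role or order. The gene annotation, and whether reads were counted by strand, are not given in the sources used here. In every library 100% of CPM values were whole multiples of 1 read (within 0.01 reads), which gave the totals. A floor of 3 reads is 0.0465 to 0.0928 CPM, for counting error only. Of 40757 rows, 276 were repeats of another row's gene ID and were dropped.

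The test was limma 3.58.1 (lmFit and eBayes with trend, two-sided, 4 group coefficients, 8 residual degrees of freedom) on log2(CPM + 1) for 14271 genes, with Benjamini-Hochberg adjustment over them and a threshold of 0.05. Log2 fold changes are on that scale and understate changes of low genes. Alternatives used edgeR 4.0.16 and DESeq2 1.42.0 on recovered reads, with R 4.3.3. The fit was tested on simulated data. Exon lengths and overlaps came from GENCODE M21 (GRCm38). Reads shared with near-identical copies cannot be assigned: 11 pseudogenes or copies named after the members summed to 33.5 to 72.2 CPM per library.

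Named genes were the complex II genes, core subunits of complexes I, III and V, the complex IV isoform families, up to 3 called genes with the smallest p per complex, direction and comparison, genes called against the majority, and up to 3 per pathway list and direction. Atp5f1, Ndufa12 and Ndufb2 were named outside it to complete a list of calls, and Atp5e, Atp5k, Atp5l, Cox5a, Ndufa1, Ndufab1, mt-Co1 and the highest and lowest levels per kb after their values were seen. Results of some genes in these lists are not reported here by name, although counts and sums include them. The members and lists were chosen with earlier results of these data known.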

Additional observations from a re-analysis of the deposited data

Results flagged for a closer look

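For 8 subunit genes reported here the effect of ETV6-RUNX1 differed between fetal liver and bone marrow by the interaction test (limma adjusted p under 0.05), with the log2 fold change more negative in fetal liver. The interaction was −1.16 for Atp5d, −1.05 for Ndufb6, −0.93 for Ndufb2, −0.86 for Ndufa10, −0.85 for Atp5g3, −0.83 for Ndufa8, −0.79 for Cox8a and −0.67 for Atp5b. In Ndufb2 it came with a rise in bone marrow, and in the other 7 with a fall in fetal liver. Every one of the 8 lost its call with the share of processed pseudogenes as a covariate and with an added 2-fold threshold.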

How the results depend on the processing

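Of the 80 genes tested, calls for ETV6-RUNX1 against WT in fetal liver (65) stayed within 1.5 times that count under every alternative but an added 2-fold threshold, which left 0, and ranged from 49 to 67 when each library was left out in turn. The other counts were less stable, and the cause was not tested. In bone marrow (11 calls) there were 5 without the expression filter, 44 with the processed pseudogene share as a covariate, 0 with the 2-fold threshold, 3 when only the libraries compared were fitted, 17 with DESeq2 and 2 to 15 leaving out 1 library. For the interaction (9) there were 3 without the filter, 3 with median-of-ratios scaling, 0 with the covariate, 0 with the 2-fold threshold, 3 with edgeR and 2 to 33 leaving out 1 library. For fetal liver against bone marrow in WT cells (5) there were 1 without the filter, 9 with the covariate, 0 with the 2-fold threshold, 3 with only the libraries compared, 10 with DESeq2 and 1 to 42 leaving out 1 library. In ETV6-RUNX1 cells (7) there were 3 with median-of-ratios scaling, 0 with the 2-fold threshold, 1 with edgeR, 3 with DESeq2 and 3 to 11 leaving out 1 library. Leaving out the 4 libraries highest in processed pseudogenes, an alternative chosen after seeing the data, gave 18 calls in bone marrow, 20 for the interaction and 37 in WT cells. With the replicate number as a block there were 64 calls in fetal liver, 7 in bone marrow, 7 for the interaction, 4 in WT and 5 in ETV6-RUNX1 cells. No pairing by replicate number was seen: deviations of same-numbered libraries correlated at -0.44 to 0.39, and 8 of 36 library comparisons correlated best with their own number. With 3 libraries per group this check cannot exclude a pairing. As a share of reads in protein-coding genes, and of those without the mitochondrially encoded ones, the members took 1.58% and 1.59% in ETV6-RUNX1 fetal liver, complex III 0.179% and 0.180%, complex V 0.502% and 0.505%, and complex I 0.499% of the latter. Complex II took 0.163% and 0.164% in WT fetal liver, and 0.162% in WT and 0.121% in ETV6-RUNX1 bone marrow of the latter. No gene called in a comparison reversed its direction under the alternatives run, although the balance of calls in ETV6-RUNX1 cells turned to 7 higher and 1 lower with the covariate.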
